A study of Homo sapiens with 8 samples.

Results

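The genes described here are neuronal tubulins and the proteins that bind or regulate microtubules in neurons. They were chosen by symbol: MAP2, MAP1B, MAPT, TUBB3, TUBB2A, TUBB2B, STMN1, STMN3, DPYSL3 and CRMP1. Of these 10 genes, 9 had a row among the 32066 genes of the count table, and all 9 passed the filter on low counts, among 15665 genes tested. CRMP1 (ENSG00000072832) had no row in the table used here and was not analysed. No gene in the table had 0 counts in every library, so a missing row may stand for a gene without reads.

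RNA was measured by poly(A) RNA-seq in DU145, an epithelial prostate carcinoma line taken from a brain metastasis. There were 4 libraries of DU145 cells carrying exogenous SOX11 and 4 libraries of control DU145 cells, all from 1 cell line. SOX11 is a transcription factor of the SOX family, best known from developing neurons. The labels name neither the vector and promoter that drive SOX11 nor what the control cells carried, and they do not say whether the libraries came from separate cultures, so p-values measure the spread between these libraries, which may be technical.

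Microtubules are polymers of alpha- and beta-tubulin dimers. Beta-tubulin comes in several isotypes, of which TUBB3 and TUBB2B are typical of neurons, while TUBB and TUBB4B serve most dividing cells. MAP2 lies in dendrites, tau (MAPT) mainly in axons and MAP1B in growing processes, where each binds along microtubules. Stathmins bind free tubulin dimers and favour disassembly, and the collapsin response mediator proteins (the CRMP/DPYSL family) bind tubulin and act in axon growth.

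Total counts ran from 15309037 to 16740516 in SOX11 libraries and from 14641250 to 18706095 in control libraries. The SOX11 gene itself had 315, 303, 317 and 310 counts in the SOX11 libraries and 0 in each control library. The labelled epithelial cell type was checked with 6 epithelial markers (KRT8, KRT18, KRT19, EPCAM, CDH1, CLDN4), which summed to between 1208 and 1216 CPM (counts scaled by TMM-adjusted library size) in SOX11 libraries and between 1503 and 1766 CPM in control libraries. SOX11 replicate 1 stood apart from the others in genes of luminal prostate cells: KLK3 was at 5.86 CPM, KLK2 at 9.93 and TMPRSS2 at 1.48 CPM there. These 3 genes summed to 17.3 CPM in that library and to between 0 and 0.485 CPM in the other 7 libraries. Fold changes and calls of the described genes that rose are therefore also given without SOX11 replicate 1. The permutation tests used below for shares, ratios and family totals were not repeated without it.

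TUBB2A and TUBB2B are near-identical neighbours on chromosome 6, and their sequences bear on how far their counts can be told apart. Their coding sequences, from GENCODE 29 transcripts on GRCh38, each have 1338 bases and differ at 25 of them, an identity of 98.1%. The last 90 coding bases, in exon 4 of 4 on the minus strand, differ at 2 positions, printed in capitals. They lie at chr6:3153863-3153952 for TUBB2A and chr6:3224751-3224840 for TUBB2B.
TUBB2B: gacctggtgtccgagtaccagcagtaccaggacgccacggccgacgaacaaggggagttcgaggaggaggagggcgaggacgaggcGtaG
TUBB2A: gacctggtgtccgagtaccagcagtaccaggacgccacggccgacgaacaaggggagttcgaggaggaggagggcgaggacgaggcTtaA
Of all the 50-base words in the exons of TUBB2B, 43.5% also occur in TUBB2A, and of those in TUBB2A 54.1% occur in TUBB2B. No source used here gives the read length or the treatment of reads with more than 1 match, so the split of counts between these 2 genes is uncertain.

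Of the 9 genes tested, 6 rose with SOX11 and 0 fell at an adjusted p below 0.05 (edgeR quasi-likelihood test). Over all genes tested, 20.0% were called, 10.3% as higher and 9.67% as lower. The 6 that rose were MAP2, TUBB2B, TUBB3, MAPT, MAP1B and STMN1. All 6 were also called without SOX11 replicate 1. TUBB2A, STMN3 and DPYSL3 were not called. The median log2 fold change of the 9 genes was 0.22, and that of all genes tested was 0.0011. The SOX11 and control libraries did not overlap for 5 of the 9 genes, where 21.1% of all genes tested had such a separation.

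**Figure D1:**
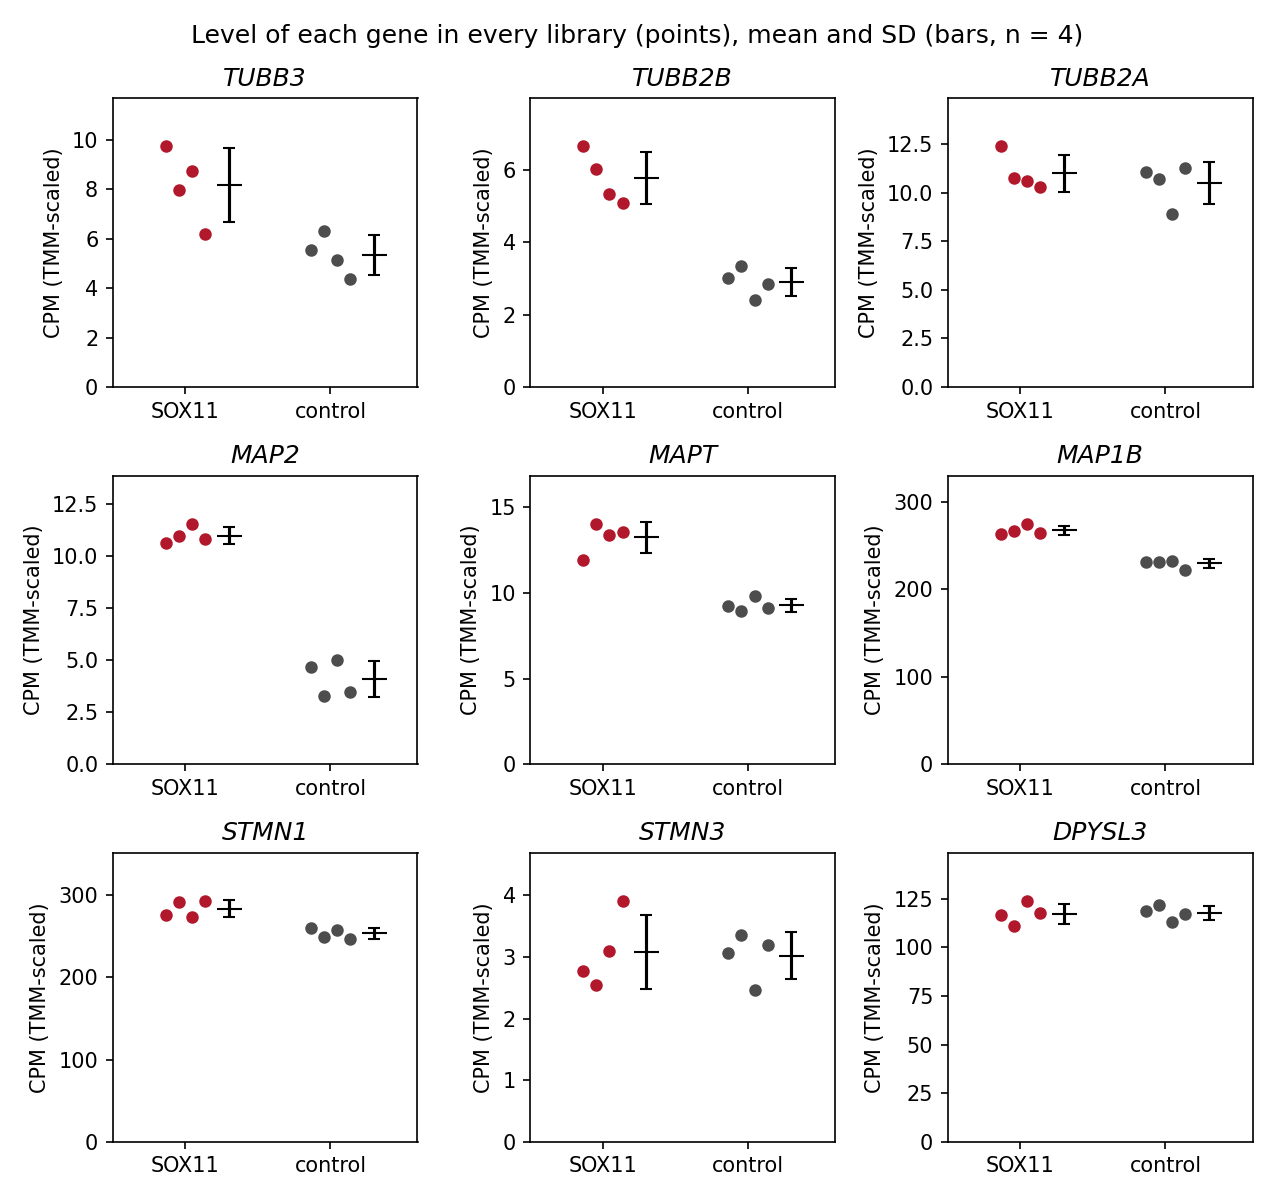
Level of the 9 measured genes in each library, in TMM-scaled CPM, on linear axes that start at 0. Points are single libraries of SOX11 cells (left, red) and control cells (right, grey), and bars give the mean and SD over 4 libraries. MAP2 and TUBB2B show the widest gaps, and the groups overlap for TUBB3, TUBB2A, STMN3 and DPYSL3.

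Among the beta-tubulins, TUBB3 and TUBB2B rose and TUBB2A did not pass the test. TUBB3 (ENSG00000258947, chr16:89921392-89938761, plus strand), the isotype most used as a marker of neurons, had 9.75, 7.99, 8.76 and 6.19 CPM in SOX11 libraries, against 5.56, 6.33, 5.15 and 4.37 CPM in control libraries. The groups overlapped, because SOX11 replicate 4 lay just below control replicate 2, while the other SOX11 libraries lay above every control library. The means were 8.17 ± 1.51 CPM in SOX11 libraries and 5.35 ± 0.818 CPM in control libraries (SD, n = 4 each). The log2 fold change was 0.60 (SE 0.130), a 1.52-fold difference, with an edgeR adjusted p of 0.00119. Without SOX11 replicate 1 it was 0.50, with an edgeR adjusted p of 0.0112. In the annotation, 33.4% of its 50-base words also occur in AC092143.1, a readthrough gene on the same strand that has no row in the table used here.

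TUBB2B (ENSG00000137285, chr6:3224261-3231730, minus strand), an isotype of migrating and newly formed neurons, had 6.66, 6.03, 5.35 and 5.08 CPM in SOX11 libraries, against 3.00, 3.35, 2.40 and 2.84 CPM in control libraries. Every SOX11 library was above every control library, by a wide margin for so low a gene. The means were 5.78 ± 0.711 CPM in SOX11 libraries and 2.90 ± 0.394 CPM in control libraries (SD, n = 4 each), a log2 fold change of 0.98 (SE 0.139, 1.98-fold, edgeR adjusted p = 3.81e-06). Without SOX11 replicate 1 the log2 fold change was 0.91, with an edgeR adjusted p of 7.52e-05. Exons of TUBB2B overlap those of PSMG4 on the opposite strand, and the strand setting of the counting is not given, so reads of the 2 genes may not be told apart. PSMG4, a proteasome assembly chaperone gene, averaged 26.8 ± 1.55 CPM in SOX11 libraries and 27.3 ± 2.16 CPM in control libraries (SD, n = 4 each), and it was not called (log2 fold change -0.03, edgeR adjusted p = 0.787).

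TUBB2A (ENSG00000137267, chr6:3153669-3157526, minus strand), a broadly expressed isotype that is abundant in brain, had 12.4, 10.8, 10.6 and 10.3 CPM in SOX11 libraries, against 11.0, 10.7, 8.93 and 11.3 CPM in control libraries. The groups overlapped, although SOX11 replicate 1 was the highest library and control replicate 3 the lowest. The log2 fold change was 0.067, with a 95% interval of -0.12 to 0.25 and an edgeR adjusted p of 0.676. With the counts of TUBB2A and TUBB2B added, as a guard against reads placed on the wrong one, the log2 fold change was 0.32 (SE 0.0834, edgeR adjusted p = 0.00549), so the call for the pair held while its size was smaller than that of TUBB2B alone. The log2 ratio of TUBB2B to TUBB2A counts was -0.93 ± 0.0824 in SOX11 libraries and -1.85 ± 0.130 in control libraries (SD, n = 4 each). The groups did not overlap in this ratio (exact two-sided permutation p = 0.0286, the smallest that 4 libraries against 4 allow, adjusted p = 0.0381 over 8 ratios).

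Of the structural MAPs, MAP2 showed the largest change of the 9 genes. MAP2 (ENSG00000078018, chr2:209424058-209734118, plus strand) had 10.6, 10.9, 11.6 and 10.8 CPM in SOX11 libraries, against 4.66, 3.30, 5.01 and 3.47 CPM in control libraries. The SOX11 libraries lay close together and all far above the control libraries, which were the more scattered. The means were 11.0 ± 0.407 CPM in SOX11 libraries and 4.11 ± 0.855 CPM in control libraries (SD, n = 4 each). The log2 fold change was 1.43 (SE 0.117), a 2.69-fold difference, with an edgeR adjusted p of 1.23e-10. By absolute log2 fold change MAP2 ranked 66 of the 15665 genes tested. Without SOX11 replicate 1 the log2 fold change was 1.44.

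MAPT (ENSG00000186868, chr17:45894382-46028334, plus strand), which encodes tau, had 11.9, 14.0, 13.4 and 13.5 CPM in SOX11 libraries, against 9.20, 8.93, 9.82 and 9.08 CPM in control libraries. All SOX11 libraries were above all control libraries, with SOX11 replicate 1 the lowest of its group. The means were 13.2 ± 0.911 CPM in SOX11 libraries and 9.26 ± 0.393 CPM in control libraries (SD, n = 4 each), a log2 fold change of 0.52 (SE 0.0848, 1.43-fold, edgeR adjusted p = 3.46e-05). An antisense gene, MAPT-AS1, overlaps exons of MAPT and has no row in the table used here. The strand setting of the counting is not given, so it is not known whether reads of the 2 genes were told apart.

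MAP1B (ENSG00000131711, chr5:72107234-72209570, plus strand), a protein of growing axons, was expressed at a much higher level and changed less. It had 263, 267, 275 and 265 CPM in SOX11 libraries, against 232, 232, 233 and 222 CPM in control libraries. The groups were narrow and did not overlap. The means were 267 ± 5.34 CPM in SOX11 libraries and 230 ± 4.84 CPM in control libraries (SD, n = 4 each), a log2 fold change of 0.22 (SE 0.0309, 1.16-fold, edgeR adjusted p = 3.53e-06). MAP4, the structural MAP of most non-neuronal cells, served as the yardstick within each library and was itself not called (log2 fold change -0.04, edgeR adjusted p = 0.423).

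Set against MAP4, all 3 neuronal MAPs were higher in SOX11 libraries. The log2 count ratio of MAP2 to MAP4 was -5.13 ± 0.0397 in SOX11 libraries and -6.60 ± 0.321 in control libraries (SD, n = 4 each), a difference of 1.47. That of MAPT to MAP4 was -4.87 ± 0.0927 in SOX11 libraries and -5.41 ± 0.0700 in control libraries, and that of MAP1B to MAP4 was -0.53 ± 0.0186 in SOX11 libraries and -0.79 ± 0.0547 in control libraries (SD, n = 4 each). None of the 3 ratios overlapped between groups, and each reached the smallest exact permutation p of 0.0286 (adjusted p = 0.0381 over 8 ratios). A ratio within a library does not depend on the scaling between libraries.

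STMN1 and STMN3 are the stathmins measured well enough to test. STMN1 (ENSG00000117632, chr1:25884181-25906991, minus strand), the stathmin of proliferating cells as well as of neurons, had 276, 292, 273 and 293 CPM in SOX11 libraries, against 260, 249, 257 and 247 CPM in control libraries. The groups did not overlap, but the gap between them was small. The means were 284 ± 10.4 CPM in SOX11 libraries and 254 ± 6.30 CPM in control libraries (SD, n = 4 each), a log2 fold change of 0.16 (SE 0.0325, 1.12-fold, edgeR adjusted p = 0.000464).

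STMN3 (ENSG00000197457, chr20:63639705-63657682, minus strand), a stathmin of neurons, had 2.78, 2.54, 3.10 and 3.91 CPM in SOX11 libraries, against 3.07, 3.35, 2.47 and 3.19 CPM in control libraries. The groups overlapped, with both the highest library and the second lowest in the SOX11 group. The log2 fold change was 0.015, with a 95% interval of -0.32 to 0.35 and an edgeR adjusted p of 0.963. A change of either sign within that interval remains possible at these counts. The log2 ratio of STMN3 to STMN1 was -6.53 ± 0.260 in SOX11 libraries and -6.39 ± 0.213 in control libraries (SD, n = 4 each, exact two-sided permutation p = 0.429, adjusted p = 0.429 over 8 ratios).

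DPYSL3 (ENSG00000113657, chr5:147390811-147510056, minus strand), a CRMP of growth cones also known as CRMP4, had 116, 111, 124 and 118 CPM in SOX11 libraries, against 118, 122, 113 and 117 CPM in control libraries. The groups overlapped fully. The log2 fold change was -0.0044, with a 95% interval of -0.082 to 0.073 and an edgeR adjusted p of 0.955. This interval is narrower than those of TUBB2A and STMN3.

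DPYSL2, the family member known as CRMP2, did rise, with 248, 269, 245 and 245 CPM in SOX11 libraries, against 207, 200, 221 and 206 CPM in control libraries (log2 fold change 0.27, SE 0.0359, edgeR adjusted p = 1.18e-06). DPYSL5 rose by 0.39 on the log2 scale (edgeR adjusted p = 0.00632), and DPYSL4 was not called (0.35, 95% interval -0.20 to 0.91, edgeR adjusted p = 0.406). The difference between DPYSL3 and DPYSL2 was tested directly: their log2 count ratio was -1.10 ± 0.124 in SOX11 libraries and -0.83 ± 0.104 in control libraries (SD, n = 4 each). The groups did not overlap in this ratio (exact two-sided permutation p = 0.0286, adjusted p = 0.0381 over 8 ratios).

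**Figure D2:**
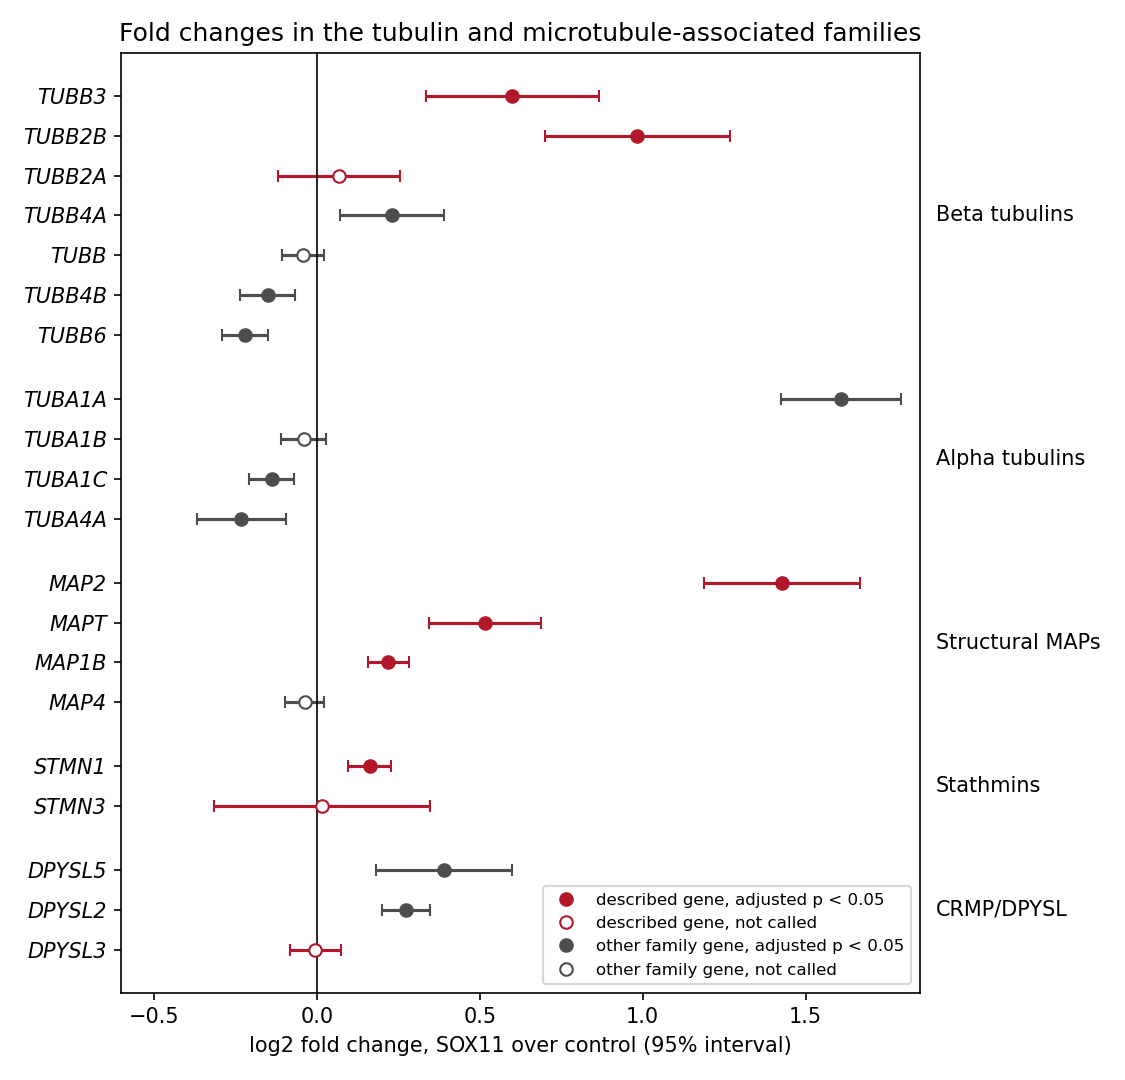
Log2 fold change of SOX11 over control libraries for the described genes (red) and other genes of their families (grey), with 95% intervals from edgeR. Filled points passed an adjusted p of 0.05. MAP2 at 1.43 and TUBB2B at 0.98 lead the described genes, and TUBA1A at 1.61 leads the other family genes.

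Levels of different genes were compared per kilobase of merged exon. In SOX11 libraries the order was STMN1 (45.3 ± 1.65 CPM per kb), MAP1B (21.2 ± 0.423), DPYSL3 (16.4 ± 0.723), TUBB2A (6.38 ± 0.549), TUBB2B (2.64 ± 0.324), TUBB3 (1.84 ± 0.340), STMN3 (1.02 ± 0.196), MAP2 (0.950 ± 0.0352) and MAPT (0.886 ± 0.0611 CPM per kb, SD, n = 4). Control libraries had the same order for the first 7 genes, with MAPT at 0.620 ± 0.0263 CPM per kb above MAP2 at 0.356 ± 0.0740 CPM per kb (SD, n = 4). Libraries of STMN3, MAP2 and MAPT overlapped in the SOX11 group, and those of TUBB2B, TUBB3 and STMN3 overlapped in the control group, so the order of these neighbours is not resolved. The other neighbours in each order did not overlap. Each order also depends on the length used. Merged exons of TUBB3 had 4430 bases and its longest transcript 1978, and those of MAPT had 14920 and 6816. An order per kb of the longest transcript was not made. TUBB, the main beta-tubulin of these cells, averaged 727 CPM per kb in SOX11 libraries and 750 CPM per kb in control libraries. TUBB3 and TUBB2B thus rose from a very low level, as the plot of change against control level shows. Of the 50-base words, 58.7% in TUBB2A, 47.9% in TUBB2B and 33.4% in TUBB3 also occur in other genes, against 14.2% in TUBB. The treatment of reads with more than 1 match is not known. Levels of these isotypes relative to TUBB, and the shares of the beta-tubulin pool below, are uncertain to that extent.

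**Figure D3:**
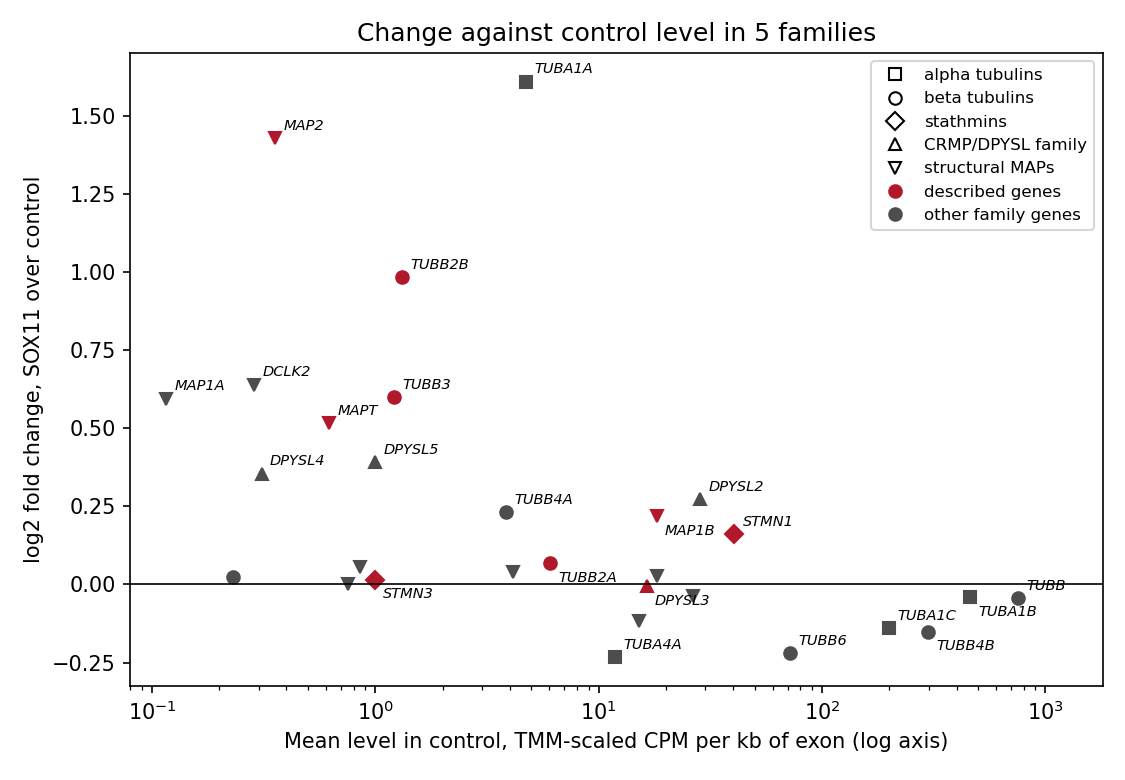
Log2 fold change of SOX11 over control (vertical) against the mean control level in TMM-scaled CPM per kb of exon (horizontal, log axis) for the tested genes of 5 families, marked by shape. Described genes are red and other family genes grey. MAP2, TUBB2B, TUBB3 and MAPT lie at low control levels, and the abundant tubulins TUBB, TUBA1B, TUBA1C and TUBB4B lie near or below 0.

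The make-up of the beta-tubulin pool was compared as each isotype's share of the summed beta-tubulin level per kb. TUBB3 made up 0.172 ± 0.0319% of the pool in SOX11 libraries and 0.107 ± 0.0176% in control libraries, and TUBB2B made up 0.246 ± 0.0345% in SOX11 libraries and 0.117 ± 0.0162% in control libraries (SD, n = 4 each). Neither share overlapped between groups. Together with TUBB2A, the 3 isotypes made up 1.15, 1.06, 0.960 and 0.885% of the pool in SOX11 libraries, against 0.850, 0.788, 0.659 and 0.751% in control libraries. TUBB2A's own share was 0.595 ± 0.0551% in SOX11 libraries and 0.538 ± 0.0602% in control libraries (SD, n = 4 each, exact two-sided permutation p = 0.2, adjusted p = 0.229 over 8 isotypes).

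The rest of the pool was TUBB, TUBB4B and TUBB6 almost entirely. TUBB4B fell to 24.9 ± 0.751% of the pool in SOX11 libraries, against 26.2 ± 0.180% in control libraries, and TUBB6, an isotype of mainly non-neuronal cells, fell to 5.75 ± 0.0915% in SOX11 libraries, against 6.35 ± 0.0618% in control libraries (SD, n = 4 each). TUBB rose to 67.9 ± 0.781% in SOX11 libraries, against 66.3 ± 0.225% in control libraries, and TUBB4A, an isotype of oligodendrocytes and neurons, rose to 0.418 ± 0.0330% in SOX11 libraries, against 0.338 ± 0.0167% in control libraries (SD, n = 4 each). The shares of TUBB3, TUBB2B, TUBB4A, TUBB, TUBB4B and TUBB6 each reached the smallest exact permutation p of 0.0286, with an adjusted p of 0.0381 over 8 isotypes. Shares of 1 pool are not independent of each other. TUBB8 was at 0.0220 ± 0.0125% in SOX11 libraries and 0.0203 ± 0.00355% in control libraries (SD, n = 4 each, exact permutation p = 0.914).

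**Figure D4:**
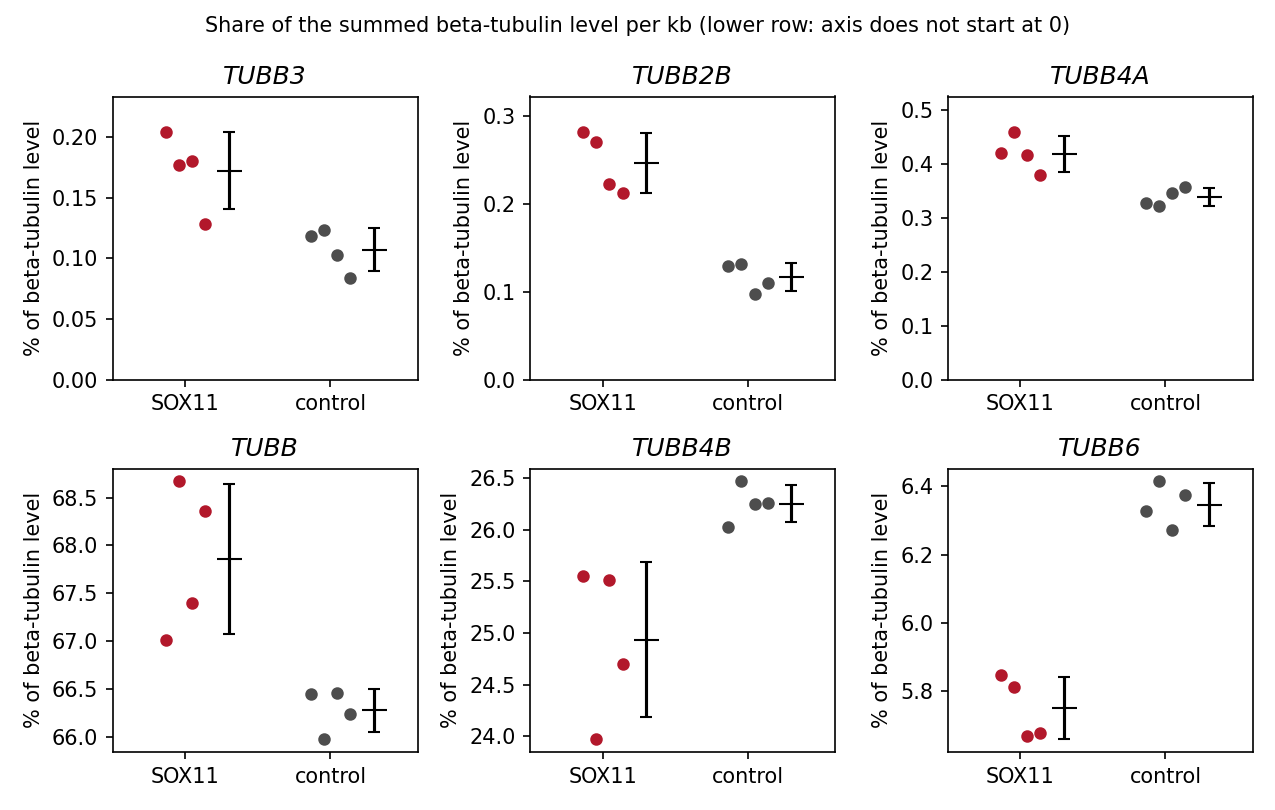
Share of the summed beta-tubulin level per kb, in percent, of 6 isotypes in each library (points) with mean and SD over 4 libraries (bars), SOX11 left and control right. TUBB3, TUBB2B and TUBB4A have axes from 0, and the axes of TUBB, TUBB4B and TUBB6 do not start at 0. In all 6 panels the groups are separate: TUBB4B and TUBB6 are lower and the other 4 higher in SOX11 libraries.

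Family totals were then compared as sums over all members in the table. Beta-tubulin summed to 1072 ± 36.4 CPM per kb in SOX11 libraries and 1131 ± 50.5 CPM per kb in control libraries (SD, n = 4 each, exact two-sided permutation p = 0.143, adjusted p = 0.179 over 5 families), and alpha-tubulin to 652 ± 31.5 CPM per kb in SOX11 libraries and 675 ± 22.9 CPM per kb in control libraries (exact permutation p = 0.343, adjusted p = 0.343). The structural MAPs summed to 88.1 ± 1.81 CPM per kb in SOX11 libraries and 85.3 ± 2.35 CPM per kb in control libraries (exact permutation p = 0.143, adjusted p = 0.179). The stathmins summed to 46.3 ± 1.72 CPM per kb in SOX11 libraries and 41.5 ± 0.939 CPM per kb in control libraries, and the CRMP/DPYSL family to 52.5 ± 1.20 CPM per kb in SOX11 libraries and 46.2 ± 0.675 CPM per kb in control libraries. Both of these were without overlap (exact permutation p = 0.0286), and neither passed an adjusted p of 0.05 over the 5 families (0.0714 each).

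TUBA1A, the alpha-tubulin typical of developing neurons, is not among the 10 genes but was read with the other alpha-tubulins. It had 53.6, 48.6, 50.2 and 46.3 CPM in SOX11 libraries, against 19.7, 16.3, 16.4 and 12.5 CPM in control libraries. The groups lay far apart, with a log2 fold change of 1.61 (SE 0.0871, 3.05-fold, edgeR adjusted p = 8.98e-10). Of its 50-base words 22.1% also occur in other genes. The largest part, 17.5%, occurs in TUBA1B, the most abundant alpha-tubulin, which was not called (log2 fold change -0.04, edgeR adjusted p = 0.452). The annotated span of TUBA1A overlaps that of TUBA1C on the opposite strand, and the strand setting of the counting is not given. TUBA1A made up 2.23 ± 0.184% of the alpha-tubulin level per kb in SOX11 libraries and 0.706 ± 0.145% in control libraries (SD, n = 4 each), a share looked at after its fold change was known. TUBA1C (-0.14, edgeR adjusted p = 0.00304) and TUBA4A (-0.23, edgeR adjusted p = 0.0142) fell on the log2 scale.

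Microtubule genes as a wider set were read from 11 family lists of 121 genes, described by counts only. The lists include the 10 genes above, of which 9 were tested and 6 rose. Of the 104 tested, these included, 24 were higher and 10 lower in SOX11 libraries, 32.7% called, against 20.0% of all genes tested. The 104 genes had a median log2 fold change of 0.036. Single lists are short, so their counts are a description to be read against 10.3% higher and 9.67% lower over all genes. Of 8 tested beta-tubulins 3 rose and 2 fell: beside TUBB3 and TUBB2B, TUBB4A rose (0.23 on the log2 scale, edgeR adjusted p = 0.0337), and TUBB6 (-0.22, adjusted p = 1.82e-05) and TUBB4B (-0.15, adjusted p = 0.0111) fell. TUBB (-0.04, edgeR adjusted p = 0.371) and TUBB8 (0.024, adjusted p = 0.974) were not called. Of 11 tested structural MAPs 5 rose and 0 fell: beside MAP2, MAPT and MAP1B these were MAP1A (0.60, edgeR adjusted p = 0.0498), a relative of MAP1B found in mature neurons, and DCLK2 (0.64, adjusted p = 0.0282), a doublecortin-like kinase. DCX, the doublecortin gene of young neurons, had no row in the table used here.

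Of 17 tested tubulin-modifying enzymes 4 rose and 0 fell. VASH2 and VASH1, which remove the last tyrosine of alpha-tubulin, rose by 0.90 (edgeR adjusted p = 1.83e-05) and 0.44 (adjusted p = 0.0011) on the log2 scale. MATCAP1, which does the same, rose by 0.26 (edgeR adjusted p = 0.00836), and ATAT1, which acetylates alpha-tubulin, by 0.35 (adjusted p = 4.11e-05). VASH2 averaged 5.26 ± 0.557 CPM in SOX11 libraries and 2.83 ± 0.379 CPM in control libraries (SD, n = 4 each). The other tested enzymes of the list were not called.

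Of 15 tested plus-end proteins 4 rose and 3 fell. Among the 4 with the smallest adjusted p, the neuron navigator NAV1 rose (0.13, edgeR adjusted p = 0.00878), and its relative NAV3 (-0.45, adjusted p = 0.000255), the linker CLIP4 (-0.24, adjusted p = 2.71e-05) and the end-binding protein gene MAPRE1 (-0.20, adjusted p = 2.98e-05) fell. Of 10 minus-end and severing proteins 2 rose and 0 fell, a share called equal to the 20.0% of all genes tested: the severing enzyme SPAST (0.21, edgeR adjusted p = 0.0147) and the minus-end protein CAMSAP1 (0.11, adjusted p = 0.0454). Of 16 tested kinases and phosphatases that act on MAPs 2 rose and 1 fell: TAOK1 (0.12, edgeR adjusted p = 0.00702), the CDK5 activator CDK5R1 (0.40, adjusted p = 0.00981) and the phosphatase subunit PPP2R2A (-0.11, adjusted p = 0.0443), which fell. Of 9 genes of gamma-tubulin, its complexes and other centrosomal tubulins 0 rose and 2 fell, TUBGCP5 (-0.16, edgeR adjusted p = 0.00776) and TUBGCP4 (-0.12, adjusted p = 0.0274). None of the 8 tubulin folding cofactors was called, including TBCD, which had the highest mean CPM of them, not corrected for length (-0.05, edgeR adjusted p = 0.448).

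Of the 31 called genes named above from the family lists, the neuronal genes included, 21 kept their call without each library in turn, among them all 6 of the neuronal genes that rose. The other 10 did not. In edgeR, TUBA4A (adjusted p = 0.0606) and NAV1 (0.0603) lost it without control replicate 2, MATCAP1 (0.0502) without SOX11 replicate 1, and SPAST without SOX11 replicate 2 (0.0629) or control replicate 2 (0.0865). TUBGCP4 lost it without SOX11 replicate 1 or 2 or control replicate 2 or 4 (adjusted p from 0.0704 to 0.111), and DCLK2 without SOX11 replicate 1, 2 or 3 or control replicate 2 (0.0526 to 0.134). TUBB4A lost it without SOX11 or control replicate 1, 2 or 3 (edgeR adjusted p from 0.0546 to 0.11), CAMSAP1 without SOX11 replicate 1, 3 or 4 or control replicate 1, 2 or 3 (0.083 to 0.128), MAP1A without SOX11 replicate 2, 3 or 4 or control replicate 1, 2 or 4 (0.0651 to 0.142), and PPP2R2A without SOX11 replicate 1, 3 or 4 or control replicate 3 or 4 (0.0566 to 0.215).

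Markers of neurons were read beside the neuronal genes. The list of 12 neuron markers had 7 in the table and 6 tested, of which 1 rose and 0 fell, and it summed to between 28.2 and 30.7 CPM in SOX11 libraries and between 21.4 and 25.2 CPM in control libraries. The marker that rose was INA, the neuronal intermediate filament alpha-internexin, at 5.07 ± 0.496 CPM in SOX11 libraries and 2.36 ± 0.187 CPM in control libraries (SD, n = 4 each, log2 fold change 1.11, edgeR adjusted p = 7.72e-07). SYP, a synaptic vesicle protein gene, was not called (0.44, 95% interval -0.12 to 0.99, edgeR adjusted p = 0.283). SYT1 (0.25), SNAP25 (0.23), NEFM (0.20) and NEFL (-0.22 on the log2 scale) were not called either. RBFOX3, ELAVL3, ELAVL4, GAP43 and DCX had no row in the table used here, which may mean no reads in any library. Of 6 neuroendocrine markers 1 was tested, ENO2, and it was not called, and the list summed to between 35.6 and 40.0 CPM in SOX11 libraries and between 38.9 and 42.1 CPM in control libraries. Of the 6 epithelial markers CLDN4 rose, and the keratins KRT8, KRT18 and KRT19 fell by 0.51, 0.42 and 0.68 on the log2 scale. The 6 fibroblast markers summed to between 5.62 and 7.59 CPM in SOX11 libraries and between 3.12 and 5.11 CPM in control libraries, and COL1A1, the 1 tested, rose. The 4 luminal prostate markers had 1 tested and 0 called, with sums from 18.0 to 39.4 CPM in SOX11 libraries and from 19.4 to 21.1 CPM in control libraries. Markers of blood summed to at most 1.24 CPM in SOX11 libraries and 1.62 CPM in control libraries, and those of endothelium to at most 0.532 CPM in SOX11 libraries and 0.639 CPM in control libraries, with 0 called. In bulk RNA, fewer cells of a type and less RNA per cell cannot be told apart, and the part of these marker shifts in the results above was not tested.

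The 5 genes whose log2 CPM followed that of MAP2 most closely over the 8 libraries, of 9691 candidates with a mean of at least 10 CPM, were SH3PXD2B (Pearson r = 0.995), PDE4D (0.991), TFPI2 (0.990), BRD3 (0.990) and SYNE2 (0.990). All 5 were higher in SOX11 libraries, with log2 fold changes from 0.28 for SYNE2 to 1.01 for TFPI2. After the group means were removed r ran from 0.833 for TFPI2 to 0.911 for SH3PXD2B. The points share libraries, depth and the step between 2 groups, and the genes were picked as the most alike of many, so these values are a description.

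Promoter windows of RefSeq genes on GRCh38.p14, the 250 bases before each annotated start, matched 9 of the 10 genes, all but MAPT, with 19 windows. They were searched on both strands for ACAAAG and ACAATG, the core strings to which SOX proteins bind, and 9 windows of 4 genes (MAP2, TUBB2B, STMN1 and CRMP1) held one. Over all 35116 windows 21.2% held at least 1 of the 2 strings, 13.7% ACAAAG and 9.29% ACAATG. Shown are windows of MAP2, TUBB2B and TUBA1A, the genes with the largest changes, and that of TUBB2A, the near copy of TUBB2B that was not called. For MAP2 only the windows that held a string are shown. Capitals mark the strings, read 5′ to 3′ along each gene, and positions count back from the start site.
MAP2, chr2:209661246-209661495, plus strand: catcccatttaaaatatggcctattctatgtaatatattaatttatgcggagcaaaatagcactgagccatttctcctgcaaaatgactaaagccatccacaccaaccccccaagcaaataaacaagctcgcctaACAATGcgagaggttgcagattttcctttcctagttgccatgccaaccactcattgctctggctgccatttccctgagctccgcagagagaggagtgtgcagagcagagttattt
MAP2, chr2:209579082-209579331, plus strand: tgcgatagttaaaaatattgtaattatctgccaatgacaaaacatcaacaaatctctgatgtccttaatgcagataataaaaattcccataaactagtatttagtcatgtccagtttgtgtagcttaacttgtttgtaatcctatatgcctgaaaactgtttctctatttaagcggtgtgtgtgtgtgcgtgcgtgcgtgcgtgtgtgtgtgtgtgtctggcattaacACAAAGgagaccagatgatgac
TUBB2B, chr6:3227654-3227903, minus strand: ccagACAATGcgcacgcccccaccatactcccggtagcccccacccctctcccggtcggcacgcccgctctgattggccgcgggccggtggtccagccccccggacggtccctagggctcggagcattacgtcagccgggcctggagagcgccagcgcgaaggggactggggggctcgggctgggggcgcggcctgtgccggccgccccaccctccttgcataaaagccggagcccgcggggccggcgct
TUBA1A, chr12:49189081-49189330, minus strand: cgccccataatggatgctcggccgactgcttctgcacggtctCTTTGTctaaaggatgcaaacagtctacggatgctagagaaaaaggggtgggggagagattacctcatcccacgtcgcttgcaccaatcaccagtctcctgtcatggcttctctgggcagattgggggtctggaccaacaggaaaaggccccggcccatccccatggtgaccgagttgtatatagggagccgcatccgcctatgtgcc
TUBB2A, chr6:3157545-3157794, minus strand: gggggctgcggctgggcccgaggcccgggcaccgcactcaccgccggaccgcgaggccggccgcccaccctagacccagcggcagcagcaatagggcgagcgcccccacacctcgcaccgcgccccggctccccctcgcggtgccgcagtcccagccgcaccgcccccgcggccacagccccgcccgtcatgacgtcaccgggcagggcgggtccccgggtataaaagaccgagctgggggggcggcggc
In MAP2, ACAATG stood at position -115 of one start and ACAAAG at position -22 of another, while a further MAP2 window held neither. In TUBB2B, ACAATG stood at position -246, and in TUBA1A the reverse complement of ACAAAG stood at position -208. The TUBB2A window and those of TUBB3, MAP1B, STMN3 and DPYSL3 held neither string, which says only that these letters are not in these windows. The strings were chosen after the fold changes were known, among 10 tried. Of the others that overlap the core strings, ACAAT was in 24.6% of all windows, CAAAG in 42.1%, AACAAT in 8.98% and AACAAAG in 4.5%. CTTTGAA, whose reverse complement holds CAAAG, was in 3.8% of them. The remaining strings searched were the E-box CACGTG with 6.34% of all windows, CCGCGG with 15.9% and CANNTG with 61.8% of them. A match is a description of the sequence, not a site of binding.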

How the data were processed

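RNA for the 8 DU145 libraries was extracted with a Maxwell RSC simplyRNA kit and made into poly(A) libraries with TruSeq Stranded mRNA, per the labels' protocols. The tools cutadapt, FastQC and STAR 2.7.0e and the build GRCh38 were used, per the submitters' processing notes. No source used here names the counter, its strand setting or its annotation. The deposited values are raw, unnormalized counts for each Ensembl gene and library. Symbols matched 32053 of 32066 identifiers, and gene coordinates are from GENCODE 29.

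Genes were filtered with filterByExpr (minimum count 10), scaled with TMM and tested with the quasi-likelihood test of edgeR 4.0.16 (R 4.3.3), comparing the 2 groups without covariates. Benjamini-Hochberg adjustment ran over all 15665 genes, with calls below 0.05. Fold changes are SOX11 over control. The script was tested on simulated counts with known changes. Ratios had 0.5 added to each count, and single values per library were compared with exact two-sided permutation tests. Alternatives were RLE and upper quartile scaling, no filter, a filter of 1 CPM in 4 libraries, DESeq2 1.42.0, the replicate number as a block, leaving out each library, and other length corrections.

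The 10 genes, the family and marker lists and the tests were chosen with earlier results of these data known. Named were all 10 genes, all tested beta-tubulins, stathmins and CRMP/DPYSL genes, up to 4 further called genes of each list by smallest adjusted p, the tested gene of highest mean CPM of a list with none called, and the 5 genes most like MAP2. TUBA1B, MAP4, PSMG4 and the single markers were named beyond this rule, after their values were seen. One gene of the marker lists is not reported here. Libraries of a group differed by more than counting noise (chi-square per degree of freedom from 1.43 to 3.29), so none was a copy of another.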

Additional observations from a re-analysis of the deposited data

Results flagged for a closer look

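A library was picked out where it lay far from the other 3 of its group by Dixon's test. Of 126 groups of 4 libraries checked 9 were picked out, and chance alone picks about 1 in 20. Of the neuronal genes, MAP1B was at 222 CPM in control replicate 4, against 232 in the next library. In SOX11 replicate 2, DPYSL2 was at 269 CPM, against 248 in the next, and CAMSAP1 at 101 CPM, against 107 in the next. MAPRE1 was at 193 CPM in control replicate 3, against 188 in the next.

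The remaining 5 were luminal prostate genes. SOX11 replicate 1 held KLK3 at 5.86 CPM, KLK2 at 9.93 CPM and TMPRSS2 at 1.48 CPM, where the next SOX11 library held 0, 0.118 and 0.0608 CPM. Among control libraries, KLK3 was at 0.277 and KLK2 at 0.208 CPM in replicate 4, levels of a few counts. Without SOX11 replicate 1 the log2 fold changes were 1.44 for MAP2, 0.91 for TUBB2B, 0.56 for MAPT, 0.50 for TUBB3, 0.23 for MAP1B and 0.17 for STMN1, and all 6 kept their edgeR calls.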

How the results depend on the processing

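All 6 calls among the neuronal genes held under every alternative run, and TUBB2A was called only when its counts were added to those of TUBB2B (0.32). With family totals taken from counts without division by length, rescaled to CPM per kb, 3 passed an adjusted exact permutation p of 0.05 (0.0476 each): the stathmins were higher by 4.87, the CRMP/DPYSL family by 6.29 and the structural MAPs by 3.41 CPM per kb. The uncalled log2 fold change of DPYSL3 changed sign with upper quartile scaling (0.0024). Without single libraries it ran from -0.031 to 0.021, that of STMN3 from -0.12 to 0.099 and that of TUBB8 from -0.22 to 0.35. TUBB4A and MAP1A lost their calls in DESeq2 (adjusted p = 0.0896 and 0.148), with every gene kept (0.0569 and 0.0979) and with the replicate block (0.0513 and 0.0613). CAMSAP1, PPP2R2A, DCLK2 and TUBGCP4 also lost theirs in DESeq2. The ratio of CRMP1 to DPYSL2 could not be formed. Replicate numbers did not pair the libraries: same-numbered libraries correlated at -0.068 to 0.109 in their deviations, and 3 of 8 libraries correlated best with their own number. With the replicate number as a block, 1506 genes were higher and 1393 lower, against 1615 and 1515 without it, and the same 6 neuronal genes were called. On 4 pairs an exact sign-flip test cannot go below p = 0.125. STMN3, TUBB2B, MAP2 and TUBB3 had low counts, which limits the precision of their fold changes.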
